A study of Prunus avium with 18 samples.

Results

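Cambium is the thin layer of dividing cells that gives rise to xylem and phloem. In Arabidopsis, the small CLE peptide TDIF, made from the CLE41 and CLE44 precursors, is secreted from the phloem side and is perceived by the receptor kinase PXY/TDR on cambial cells, where it promotes expression of the homeobox transcription factors WOX4 and WOX14 and holds back xylem differentiation. CLE42 encodes a closely related peptide. The roles given here for cherry genes are those known from Arabidopsis.

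Genes of this kind in sweet cherry (Prunus avium), taken as a set of 3 by their identifiers, were followed in flower buds through winter. They were the peptide gene CLAVATA3/ESR-RELATED 42 (CLE42, PAV08g0393611) and the transcription factor genes WUSCHEL related homeobox 14 (WOX14, PAV05g0238571) and WUSCHEL related homeobox 4 (WOX4, PAV05g0261141), out of 48133 genes in the count tables and 24 genes that the study listed as vascular. All 3 passed the filter on low counts, which 26248 genes passed. The names follow the study's text. Its candidate list is not uniform on them, since the Arabidopsis description beside WOX14 reads WUSCHEL related homeobox 4, that beside WOX4 reads WUSCHEL related homeobox 14, and that beside CLE42 reads CLAVATA3/ESR-RELATED 44. The identifiers therefore fix which gene is meant, and the values below belong to the identifiers whichever name is preferred. Another annotation in that list calls PAV04g0206101 (named CLAVATA3/ESR-RELATED 41) and PAV04g0200381 (named CLAVATA3/ESR-RELATED 44) TDIF precursors. It has no hit for CLE42. Sequences and positions of the genes were not analysed here.

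The buds came from 'Fertard', a late-flowering cultivar grafted on Maxma Delbard 14 rootstock, and were sampled on October 17, 2017 (onset of dormancy), December 8, January 3, January 15 and February 12 (4 dates in endodormancy, when buds do not open even in warmth) and March 12, 2018. The study's expression phases end in ecodormancy, when cold alone holds growth back, but its forcing test placed the release of dormancy in that winter after the March sampling. Each date had 3 replicates, stated to be buds of 3 different trees, giving 18 libraries of 10095600 to 21023379 counted reads. For the December libraries the labels give the year 2012 and day 17, and the day of the study's design text was used instead. All libraries were of 1 cultivar in 1 winter, and date, temperature, day length and bud stage cannot be told apart. Whole buds were ground, and a lower level of a transcript in fewer cambial cells and less transcript per cell cannot be told apart either. The count tables carry no names of organ markers, and the flower bud label was not checked against any.

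Levels are given as counts per 1000000 reads (CPM) on library sizes scaled by the trimmed mean of M values. They are not divided by gene length, so the 3 genes are compared by their course over the dates and not by level. A gene is said to have risen or fallen between dates where edgeR's quasi-likelihood test gave an adjusted p under 0.05 over all genes tested and the log2 fold change was over 1 in size. Fold changes are of the later over the earlier date.

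The peptide gene and one of the transcription factor genes were highest in October and lower at all 5 later dates. CLE42 was 2.54-fold lower in December than in October, and its lowest mean was that of January 15. WOX14 likewise had its highest mean in October and its lowest in December. WOX4 took another course, with its highest means on December 8 and January 3 and its lowest on January 15 and February 12.

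CLE42 had 25.5, 24.7 and 22.5 CPM in the 3 October libraries and 10.5, 10.1 and 7.81 CPM on December 8. On January 3 it had 9.68, 9.21 and 9.78 CPM, and on January 15 it had 7.58, 8.26 and 6.34 CPM. On February 12 it had 11.0, 12.4 and 11.3 CPM, and on March 12 it had 9.00, 8.15 and 9.71 CPM. The highest of the 15 later libraries, at 12.4 CPM, thus stood well below the lowest October library at 22.5 CPM. Such a separation, with all 15 later libraries below all 3 of October, was shown by 6.44% of all genes tested. These levels rest on 74 to 394 reads of CLE42 per library, which give a counting error of 5.04% to 11.6%, against a spread of 3.17% to 15.4% between replicates of a date. The October mean made up 34.0% of the sum of the 6 date means.

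CLE42 fell at all 5 later dates relative to October 17. Its mean was 9.49 ± 1.47 CPM on December 8, against 24.2 ± 1.57 CPM on October 17 (SD, n = 3 each), with a log2 fold change of -1.34 (SE 0.13, adjusted p = 1.45e-07, edgeR's quasi-likelihood test). Of all genes tested, 11.6% fell in this comparison. The largest difference was that of January 15, with a mean of 7.39 ± 0.972 CPM (SD, n = 3), a log2 fold change against October 17 of -1.70 (SE 0.13) and an adjusted p of 7.05e-09 by the same edgeR test. January 3 gave -1.34, February 12 gave -1.07 and March 12 gave -1.44 against October 17, each with an adjusted p of 1.38e-06 or less. The share of all genes tested that fell against October 17 was 11.6% on January 3, 10.6% on January 15, 10.8% on February 12 and 7.73% on March 12. These 5 comparisons share the October libraries and are not independent of each other. Over all genes tested, 453 genes (1.73%) fell against October 17 at all 5 later dates, and 97 of them (0.37%), CLE42 included, passed the thresholds between no pair of later dates.

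**Figure D1:**
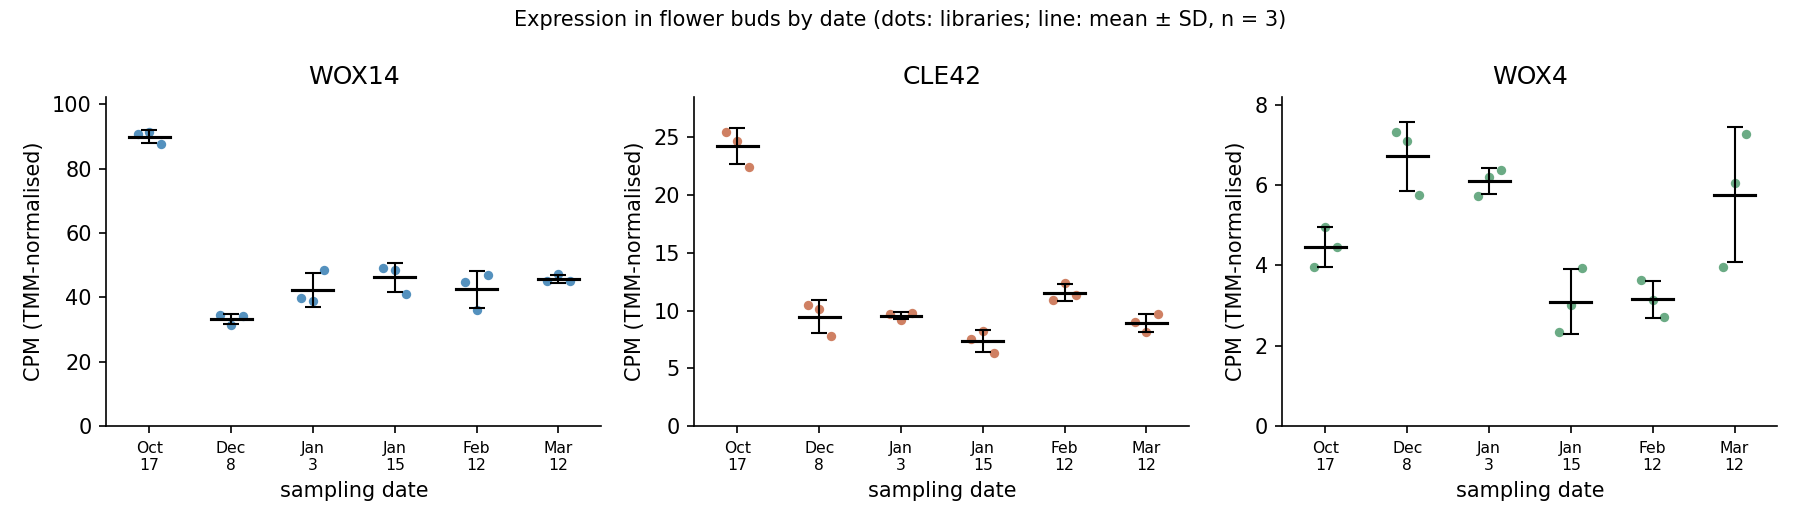
Expression of CLE42, WOX14 and WOX4 in CPM (linear axis from 0, with its own range in each panel) at the 6 sampling dates. Points are libraries, and the bar with its whiskers is the mean ± SD of 3 replicates. The October libraries of CLE42 (22.5 to 25.5 CPM) and WOX14 (87.6 to 91.4 CPM) stand above all later ones, whereas WOX4 is highest on December 8.

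Among the later dates, CLE42 moved within a narrower range. Its mean was 11.6 ± 0.721 CPM on February 12, against 7.39 ± 0.972 CPM on January 15 (SD, n = 3 each), a log2 fold change of 0.63 (SE 0.13, adjusted p = 0.000886, edgeR) that is short of the fold threshold, and the libraries of these dates did not overlap, as with 23% of all genes tested. For March 12 against February 12, the log2 fold change was -0.37 (SE 0.13, adjusted p = 0.0242, edgeR), and for January 15 against December 8 it was -0.36 (SE 0.13, adjusted p = 0.0425, edgeR), both again short of the fold threshold. The means of December 8, January 3 and March 12 lay between 8.95 and 9.56 CPM and did not differ beyond their spread, with adjusted p values of 0.54 to 0.983 by edgeR's test. The level of October was therefore not regained by March in these buds.

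WOX14 encodes one of the cambial homeobox factors. It had 90.6, 91.4 and 87.6 CPM in the October libraries and 34.5, 31.6 and 34.1 CPM on December 8. January 3 gave 39.7, 38.8 and 48.4 CPM, and January 15 gave 49.3, 48.5 and 40.9 CPM. February 12 gave 44.8, 36.0 and 46.9 CPM, and March 12 gave 45.0, 47.3 and 45.1 CPM. All 15 later libraries (31.6 to 49.3 CPM) lay below all 3 October libraries, a separation that 6.44% of all genes tested showed, CLE42 among them. With 343 to 1457 reads of WOX14 per library, the counting error was 2.62% to 5.40% and the spread between replicates 2.26% to 13.5%.

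WOX14 fell to 33.4 ± 1.60 CPM on December 8, against 89.9 ± 2.03 CPM on October 17 (SD, n = 3 each). The log2 fold change was -1.43 (SE 0.10, adjusted p = 4.30e-09, edgeR's quasi-likelihood test), or 2.69-fold lower. WOX14 also fell on January 3 (log2 fold change -1.09, adjusted p = 7.47e-08, edgeR) and on February 12 (-1.08, adjusted p = 9.38e-08, edgeR) relative to October 17. On January 15 the log2 fold change against October 17 was -0.96 (adjusted p = 3.97e-07, edgeR), and on March 12 it was -0.97 (adjusted p = 2.27e-07, edgeR), so these dates passed the adjusted p and missed the fold threshold by little. The calls of January 15 and February 12 depended on single libraries. Without February 12 replicate 2, the value of February 12 became -0.97 and no longer passed, and without January 15 replicate 1, that of January 15 became -1.0 and passed.

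After December, WOX14 was somewhat higher. Its mean was 42.3 ± 5.28 CPM on January 3, 46.2 ± 4.60 CPM on January 15, 42.6 ± 5.74 CPM on February 12 and 45.8 ± 1.30 CPM on March 12 (SD, n = 3 each). Relative to December 8, the log2 fold changes of these dates were 0.34, 0.47, 0.35 and 0.45, with adjusted p values of 0.0144, 0.00143, 0.00946 and 0.000915 by edgeR's test and none over the fold threshold. Every library of these 4 dates stood above every December library (36.0 CPM the lowest of them, 34.5 CPM the highest of December), as with 6.77% of all genes tested. Between these 4 dates themselves, no difference in WOX14 exceeded the spread between replicates, the adjusted p values being 0.326 to 0.938 by edgeR.

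WOX4 encodes the other cambial homeobox factor. It had 3.96, 4.96 and 4.47 CPM in the October libraries, and 7.33, 7.09 and 5.74 CPM on December 8. January 3 gave 5.73, 6.20 and 6.38 CPM, and January 15 gave 2.34, 3.02 and 3.94 CPM. February 12 gave 3.63, 3.13 and 2.72 CPM, and March 12 gave 3.97, 6.05 and 7.28 CPM. The 6 libraries of December 8 and January 3 had 5.73 to 7.33 CPM. Without overlap, they lay above the 6 libraries of January 15 and February 12 (2.34 to 3.94 CPM), as for 3.26% of all genes tested. The March libraries (3.97 to 7.28 CPM) overlapped with those of December 8 and January 3. The lowest of March (3.97 CPM, 49 reads) was not apart from the highest of January 15 (3.94 CPM, 46 reads) beyond counting error. WOX4 rests on fewer reads than the other genes, 28 to 112 per library, which gives a counting error of 9.45% to 18.9% and goes with a spread of 5.47% to 29.0% between replicates.

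WOX4 fell on January 15 and on February 12 relative to December 8. Its mean was 3.10 ± 0.804 CPM on January 15, against 6.72 ± 0.853 CPM on December 8 (SD, n = 3 each), with a log2 fold change of -1.14 (SE 0.22, adjusted p = 0.000494, edgeR's quasi-likelihood test), in a comparison in which 4.02% of all genes tested fell. On February 12 the mean was 3.16 ± 0.458 CPM (SD, n = 3) and the log2 fold change against December 8 was -1.08 (SE 0.22, adjusted p = 0.000612, edgeR), where 5.27% of all genes tested fell. The January 15 value is carried in part by 1 library, as without January 15 replicate 1 it was -0.98 and no longer passed the fold threshold. Relative to January 3, with a mean of 6.10 ± 0.334 CPM (SD, n = 3), the log2 fold changes were -0.99 on January 15 (adjusted p = 0.00261, edgeR) and -0.93 on February 12 (adjusted p = 0.00193, edgeR), close to the threshold but short of it.

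At the onset of dormancy WOX4 did not take the direction of the other genes. Its mean was 6.72 ± 0.853 CPM on December 8, against 4.46 ± 0.501 CPM on October 17 (SD, n = 3 each), and the log2 fold change was 0.59 (SE 0.21, adjusted p = 0.0308, edgeR), which is short of the fold threshold. Without October 17 replicate 1 or 3, or without December 8 replicate 1 or 2, the adjusted p of WOX4 was 0.0717 to 0.108. At the adjusted p alone, 43.1% of all genes tested passed. All 3 December libraries stood above all 3 October libraries, as did those of 25% of all genes tested. On March 12 the mean was 5.77 ± 1.67 CPM, with log2 fold changes of 0.90 against January 15 (adjusted p = 0.00168, edgeR) and 0.84 against February 12 (adjusted p = 0.00371, edgeR), both short of the fold threshold. The March libraries of WOX4 differed widely, and without March 12 replicate 1, at 3.97 CPM, the values were 1.09 and 1.03, which passed, whereas without March 12 replicate 3, at 7.28 CPM, they were 0.71 and 0.64. For March 12 against October 17 the log2 fold change of WOX4 was 0.35 (SE 0.21, adjusted p = 0.175, edgeR), with 0.55 (adjusted p = 0.0334) without March 12 replicate 1 and 0.16 (adjusted p = 0.595) without March 12 replicate 3.

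**Figure D2:**
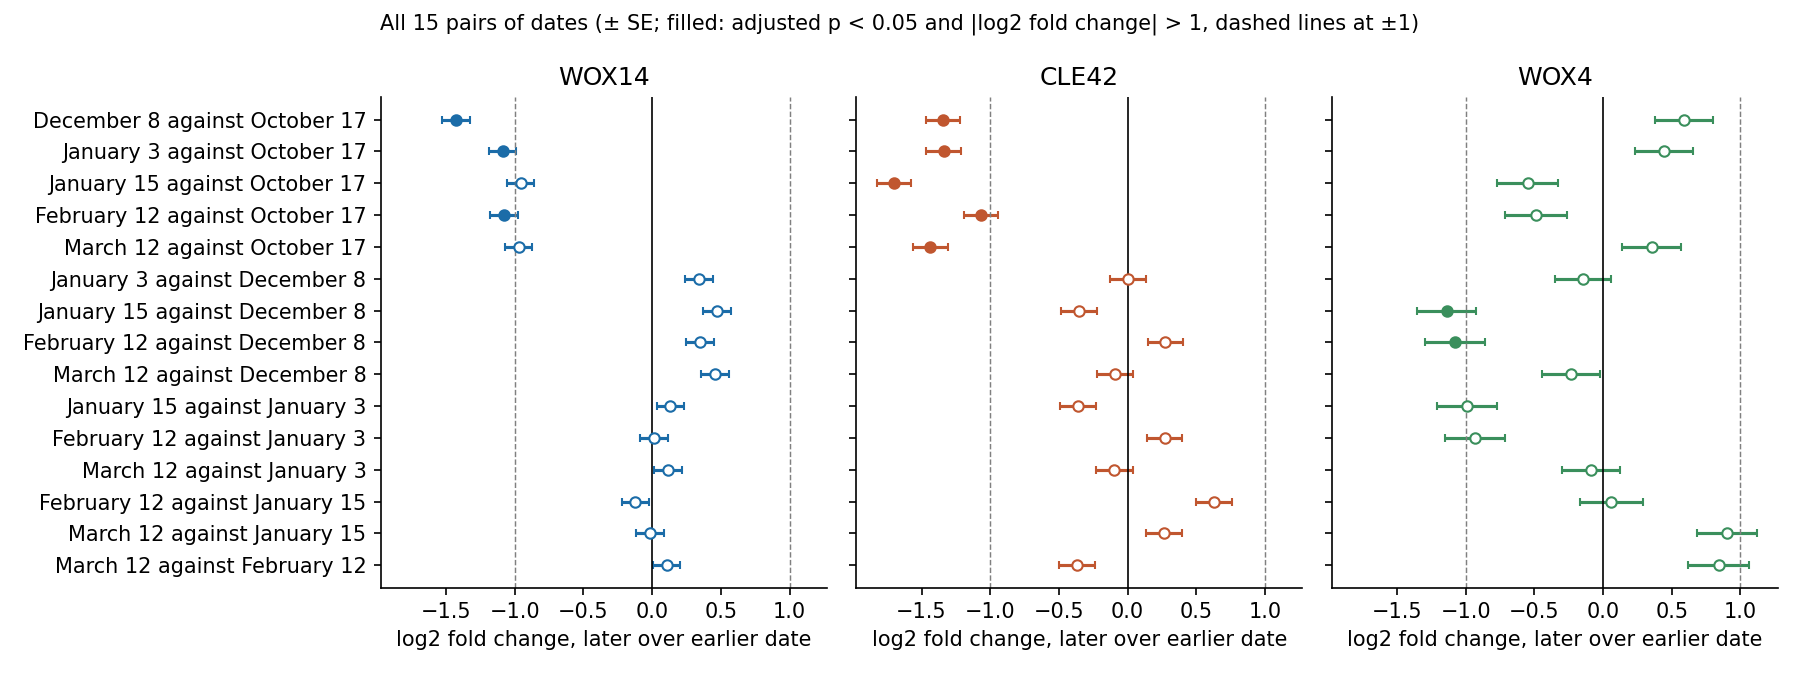
Log2 fold change of the later over the earlier date (x axis, ± SE from edgeR) for the 15 pairs of dates (rows) in WOX14, CLE42 and WOX4. Filled points passed both thresholds, 3 for WOX14, 5 for CLE42 and 2 for WOX4, and dashed lines stand at a log2 fold change of 1 in either direction; the filled points of WOX14 and CLE42 are all in comparisons with October 17.

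Over the 15 pairs of dates, CLE42 passed both thresholds in 5 pairs, WOX14 in 3 and WOX4 in 2. Of all genes tested, 29.1% passed in at least 5 pairs, 39.3% in at least 3 and 46.2% in at least 2, so the number of pairs does not set these genes apart from the rest of the transcriptome. When the endodormancy dates were averaged and set against the average of October 17 and March 12, the log2 fold changes were -0.65 for CLE42 (SE 0.08, adjusted p = 9.17e-07, edgeR), -0.65 for WOX14 (SE 0.06, adjusted p = 3.06e-08, edgeR) and -0.18 for WOX4 (SE 0.13, adjusted p = 0.246, edgeR). None was over the fold threshold, beyond which 12.9% of all genes tested fell and 4.6% rose.

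The unequal course of the 3 genes was also read within libraries, where the ratio of read counts does not depend on scaling between libraries. The log2 ratio of WOX4 to CLE42 was -0.99 ± 0.598 in the 15 libraries of the later dates and -2.44 ± 0.206 in the 3 October libraries (mean ± SD). This is a difference of 1.45, with p = 0.00245 (2-sided exact permutation test over 816 splits, adjusted p = 0.00735 over the 3 ratios). The splits ignore dates, so this p is only of these libraries and does not measure the spread between dates. The ratio had its highest mean on December 8, at -0.49 ± 0.0439, and low again on February 12, at -1.86 ± 0.245 (SD, n = 3 each). All 15 later libraries, of which the lowest was at -2.04, lay above the highest October library at -2.31. How many other pairs of genes separate October in this way was not counted, and CLE42 by itself already does so.

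For WOX4 to WOX14, the log2 ratio was -3.15 ± 0.684 in the later libraries and -4.33 ± 0.157 in the October libraries, a difference of 1.17 (exact permutation p = 0.00735, adjusted p = 0.011). Here the groups overlapped through January 15 replicate 1, at -4.38, and without October 17 replicate 1 the adjusted p was 0.0662. The log2 ratio of CLE42 to WOX14 was -2.16 ± 0.36 in the later libraries and -1.89 ± 0.0665 in the October libraries. The difference was -0.27 (exact permutation p = 0.223, adjusted p = 0.223). The spread of the later libraries here includes differences between their dates. Within the winter this ratio was lowest on January 15, at -2.64 ± 0.0801 (SD, n = 3), a date singled out after the values were seen. Its 3 libraries lay below the 15 others, but only just, with -2.551 against -2.531 in March 12 replicate 2. The share of other pairs of genes that do so was not counted. The splits of these tests ignore that the later libraries come from 5 dates and that the October libraries all share the same date. The smallest p they allow is 0.00123.

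**Figure D3:**
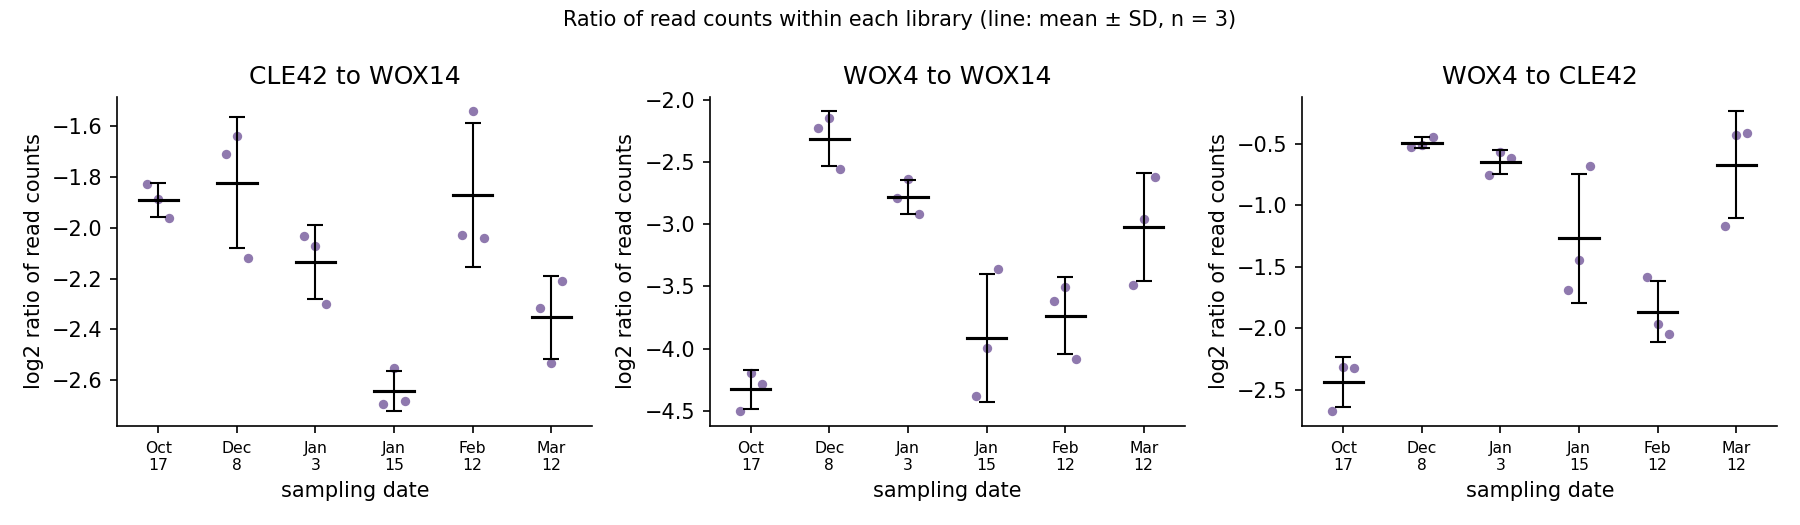
Log2 ratio of read counts between pairs of the 3 genes within each library (0.5 added to each count) at the 6 dates, with the mean ± SD of 3 replicates. WOX4 relative to CLE42 is lowest in October (-2.67 to -2.31) and has its highest mean on December 8 (-0.52 to -0.44), and CLE42 relative to WOX14 is lowest on January 15.

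The vascular list of the study, which holds the 3 genes, gives their neighbours in the pathway. Of its 24 genes, 18 passed the filter on low counts, and 9 of the 15 tested genes other than the 3 passed both thresholds in at least 1 pair of dates, as did 54.3% of all genes tested. Among the other CLE genes of the list was the one named CLAVATA3/ESR-RELATED 44 (PAV04g0200381, described there as CLAVATA3/ESR-RELATED 42). This gene had 2.60 ± 0.132 CPM on December 8, against 2.56 ± 0.300 CPM on October 17 (SD, n = 3 each). Its log2 fold change was 0.02 (adjusted p = 0.948, edgeR). It fell on January 3 to 1.28 ± 0.229 CPM, with a log2 fold change of -1.03 against December 8 (SE 0.22, adjusted p = 0.00111, edgeR), and did not pass without January 3 replicate 1 (-0.88). Here 4.05% of all genes tested fell. Against October 17 this gene fell on January 3 (-1.01, adjusted p = 0.000742, edgeR) and January 15 (-1.10, adjusted p = 0.000333, edgeR). Of all genes tested, 11.6% and 10.6% fell in these comparisons. Without October 17 replicate 2 these values were -0.91 and -0.997 and did not pass. Without January 3 replicate 1 the first was -0.85 and did not pass. CLAVATA3/ESR-RELATED 41 (PAV04g0206101) had only 2 to 15 reads per library, with date means of 0.408 to 0.857 CPM, and passed the thresholds in no pair, with differences hard to detect at this depth.

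In December against October, 4 of the 18 tested genes of the list fell and 0 rose, where 11.6% of all genes tested fell and 3.49% rose. Beside CLE42 and WOX14, those that fell were myb domain protein 4, whose Arabidopsis counterpart represses phenylpropanoid genes, and NAC domain containing protein 83. Myb domain protein 4 (PAV03g0162121) had 31.6 ± 3.91 CPM on December 8, against 67.8 ± 4.39 CPM on October 17, with a log2 fold change of -1.10 (SE 0.10, adjusted p = 1.07e-07, edgeR). NAC domain containing protein 83 (PAV05g0249451) had 0 to 3 reads per library in December, against 4 to 11 in October, and its call at an adjusted p of 0.0468 (edgeR) was kept in only 6 of 25 alternative analyses. The median log2 fold change of the list was -0.04, as was that of all genes tested, and -0.02 without the 3 genes. At the adjusted p alone, without regard to fold, 6330 of the 26248 genes tested were lower in December and 4977 were higher. Of the list, 6 genes were lower and 3 were higher by this rule. The 3 were homeobox gene_1 (log2 fold change 0.50, adjusted p = 0.000697, edgeR), homeobox gene_3 (0.31, adjusted p = 0.0093, edgeR) and WOX4, which were also the 3 higher at an unadjusted p under 0.05, and 0 genes of the list rose past both thresholds by DESeq2.

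In March against February, 4 genes of the list rose and 1 fell, while CLE42, WOX14 and WOX4 passed no threshold on fold there. Of all genes tested, 14.7% rose and 9.66% fell. One that rose was a methyltransferase annotated as thermospermine synthase (PAV01g0001741), the enzyme that limits xylem differentiation in Arabidopsis, with 63.5 ± 4.86 CPM on March 12, against 14.9 ± 2.30 CPM on February 12, and a log2 fold change of 2.09 (SE 0.15, adjusted p = 2.61e-09, edgeR). Leucin-rich kinase_1 (PAV02g0131331), annotated as a leucine-rich repeat protein kinase, had 45.2 ± 4.84 CPM on March 12, against 12.7 ± 3.24 CPM on February 12, with a log2 fold change of 1.81 (SE 0.16, adjusted p = 2.59e-08, edgeR). The others that rose were BZR1, of the brassinosteroid response factors, with 1.05 (adjusted p = 2.84e-05, edgeR, and 0.97 without March 12 replicate 3), and NAC domain containing protein 83, with 3.51 (adjusted p = 0.000835, edgeR) on 5 to 11 reads per library in March and 0 to 1 in February. Myb domain protein 7 (PAV03g0144681) fell by 1.90 on the log2 scale. The list's median was 0.34, and that of all genes tested 0.00.

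**Figure D4:**
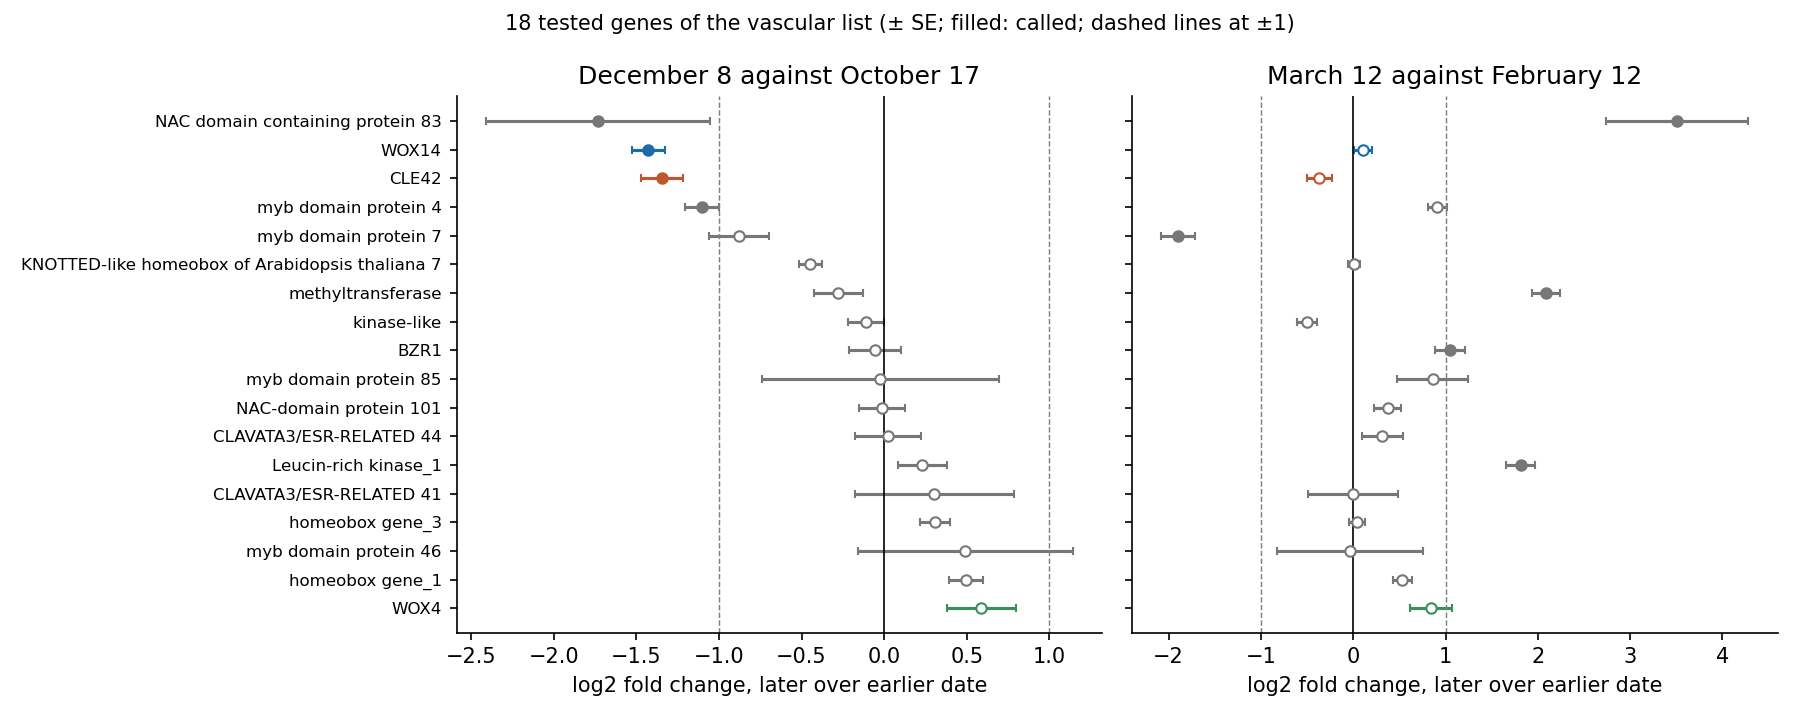
Log2 fold change (x axis, ± SE from edgeR) of the 18 tested genes of the vascular list on December 8 against October 17 (left) and on March 12 against February 12 (right). Filled points passed both thresholds, 4 on the left (all lower) and 5 on the right (4 higher, 1 lower), and WOX14, CLE42 and WOX4 are coloured.

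Myb domain protein 85 (PAV03g0140721), known in Arabidopsis as an activator of secondary wall formation, is on the same list. Myb domain protein 85 varied between replicates by 25.9% to 66.1% of its date mean. It had 52.3 ± 25.7 CPM on March 12, against 1.33 ± 0.471 CPM on October 17 (SD, n = 3 each), with a log2 fold change of 5.27 (SE 0.52, adjusted p = 1.43e-07, edgeR), in a comparison in which 13.2% of all genes tested rose. None of the 3 cambial genes rose in this comparison. CLE42 fell (log2 fold change -1.44), and WOX14 was lower but short of the fold threshold (-0.97). WOX4 had a log2 fold change of 0.35 (adjusted p = 0.175, edgeR).

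Likeness of course over the 18 libraries was described by Pearson's r of log2 CPM against 313 other tested genes of the study's whole candidate list, which covers transport between cells. The libraries share dates, so these values carry no test. Most like CLE42 were beta glucosidase 6_2 (r = 0.924), beta glucosidase 36_17 (r = 0.880) and beta glucosidase 40_4 (r = 0.847), and most like WOX14 were beta glucosidase 36_17 (r = 0.896), beta glucosidase 40_4 (r = 0.844) and heteroglycan glucosidase 1_3 (r = 0.840). The glycosyl hydrolases called beta glucosidase here had date means of 3.85 to 8.98 CPM in October and at most 0.717 CPM at every later date, so these likenesses rest on the contrast of October with the rest. By rank the likeness was lower, with Spearman's rho of 0.663 for CLE42 with beta glucosidase 6_2 and 0.535 for WOX14 with beta glucosidase 36_17.

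Most like WOX4 were homeobox gene_1 (PAV04g0196421, r = 0.813), the callose synthase gene GSL_3 (r = 0.737) and homeobox gene_3 (PAV03g0147121, r = 0.708). Both homeobox genes are described as homeobox-leucine zipper genes with a START domain, a family of which some members pattern vascular tissue in Arabidopsis, and both belong to the vascular list. Homeobox gene_1 had 62.7 ± 5.05 CPM on January 15, against 128.5 ± 12.6 CPM on December 8, and fell with a log2 fold change of -1.04 (SE 0.10, adjusted p = 5.99e-07, edgeR), a value that was -0.98 without December 8 replicate 1 and -0.99 without January 15 replicate 2. Homeobox gene_3 had its highest mean on December 8 (153.4 ± 6.24 CPM) and its lowest on January 15 (99.8 ± 10.0 CPM), and passed the thresholds in no pair. Among the 3 genes themselves, r was 0.805 between CLE42 and WOX14, -0.24 between WOX14 and WOX4, and -0.02 between CLE42 and WOX4. Of the 26247 other genes tested, 21 had an r of 0.9 or more with WOX14, 15 with CLE42 and 1 with WOX4.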

How the data were processed

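The authors deposited raw counts of reads for each gene. They made stranded mRNA libraries, trimmed reads with Trimmomatic 0.36, aligned them with STAR to the 'Regina' genome and counted them with HTSeq. Other versions, and the treatment of reads shared by paralogs, are not given in the sources used here. Replicates and dates came from the labels, except the December date, which came from the study's design text. Tests covered genes averaging 3 counts or more with zeros in at most 75% of libraries, and were run with edgeR 4.0.16 in R 4.3.3 (TMM, quasi-likelihood, 1 mean per date over 18 libraries, 12 residual degrees of freedom), with Benjamini-Hochberg adjustment. Thresholds follow the study. Ratios were tested by exact permutation in Python 3.11.15 with scipy 1.17.1. The members, lists and tests were chosen with earlier results of these data known. Named genes were the 3 members, the vascular list and, for each member, the 3 most correlated candidates. Candidate identifiers were matched exactly (21 of the 24 vascular genes) or by the number that ends them (3). Spread among replicates exceeded counting noise (chi-square per degree of freedom 1.89 to 23.9). Counting errors cover sampling of reads only. Alternatives were DESeq2 1.42.0, other scalings and filters, a replicate block, the compared dates alone, libraries left out and the adjusted p alone. The scripts were tested on simulated data.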

Additional observations from a re-analysis of the deposited data

How the results depend on the processing

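The December 8 values against October 17 kept their direction in every alternative run for the 3 genes, and calls of CLE42 against October did so too. Leaving out 1 library at a time gave log2 fold changes of -1.45 to -1.39 for WOX14, -1.43 to -1.23 for CLE42 and 0.51 to 0.69 for WOX4, and 2 to 4 called pairs of dates for WOX14, 5 for CLE42 and 1 to 4 for WOX4 (1 without January 15 replicate 1, and 4 without January 15 replicate 3 or March 12 replicate 1). It gave 3 to 4 vascular genes called in December. With the adjusted p alone, WOX4 in December (0.59) passed (not without October 17 replicate 1 or 3, December 8 replicate 1 or 2, or the 3 libraries of the lowest mapping share, adjusted p 0.0717 to 0.108), called pairs were 9 for WOX14, 8 for CLE42 and 8 for WOX4, and 9 vascular genes were called in December, against 4. By that rule, 43.1% of all genes tested passed in December against October, and 25.4% to 64.8% in each of the 15 pairs of dates. WOX14 on March 12 against October 17 passed both thresholds with upper quartile scaling (-1.01) and with no filter (-1.0). Without the 3 libraries of the lowest mapping share (December 8 replicate 1, January 3 replicate 2, February 12 replicate 2), WOX14 on February 12 against October 17 was -0.97 and not called. Differences near 0 changed sign. WOX14 on March 12 against February 12 was -0.0154 without those 3 libraries, and from -0.0005 to 0.15 with 1 library left out. CLE42 on January 3 against December 8 was -0.0383 with DESeq2, -0.0339 with its size factors, -0.0368 with upper quartile scaling, -0.0621 with no filter, -0.0577 with filterByExpr, -0.0538 with a mean count of at least 10, -0.0747 with the compared dates alone, and -0.1128 to 0.0913 with 1 library left out. WOX4 on February 12 against January 15 was -0.10 to 0.24 with 1 library left out. The cause of these changes was not tested. With a replicate block, WOX4 on January 15 against January 3 passed (-1.0, adjusted p = 0.00313, edgeR), and no other call of the 3 genes changed. Whether libraries of the same number come from the same tree is not stated. Of 45 same-numbered pairs, 4 deviated together with r over 0.1 (range -0.28 to 0.41). These values cannot show whether the numbers follow trees, since a weak tree effect could be hidden by other spread. Depth limits WOX4 and CLAVATA3/ESR-RELATED 41 most.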
